A study of Mus musculus with 8 samples.

Results

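The proximal convoluted tubule (PCT) is the stretch of the nephron that receives the glomerular filtrate first. Its cells carry a brush border and take back most of the filtered glucose, amino acids, phosphate, bicarbonate and small proteins, largely by carriers that run on the sodium gradient. They also make glucose, burn fatty acids and activate vitamin D. Here, PCT nuclei were chosen by measured values. A nucleus with at least 500 genes, at least 800 unique molecular identifiers (UMIs, 1 per captured transcript) and at most 2% mitochondrial UMIs was taken when at least 3 of the 5 transporter genes Slc5a2, Slc5a12, Slc6a19, Slc7a7 and Slc7a8 had a UMI and when Slc7a13 and Cyp7b1, which mark the later S3 segment, had at most 1 UMI each. The rule took 14277 of 81391 quality-filtered (QC) nuclei, 17.5% of all, out of 82784 barcodes.

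The nuclei came from frozen kidneys of 8 male mice on the C57BL/6J background, 2 for each combination of genotype and time point. Ctrl mice were Bmal1lox/lox, and cKOt mice were littermates that carried Pax8-rtTA and LC-1 in addition. All mice, of both genotypes, drank doxycycline (2 mg/ml, with 20 mg/ml sucrose) for 2 weeks from 8 weeks of age and were collected as adults after further weeks without it, at ZT4 in the light phase or at ZT16 in the dark phase. In this model the Pax8 promoter directs the doxycycline-dependent activator to tubule cells along the whole nephron, so that Cre recombinase inactivates Bmal1 (Arntl) in the PCT and in the other segments together, whereas blood vessels and the brain keep the gene. Ctrl mice lack the transgenes as well as the deletion, and effects of these cannot be told apart. Each library is 1 mouse, and a group mean rests on n = 2.

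Cells of the PCT, like most others, hold a circadian clock. CLOCK or NPAS2 pairs with BMAL1 and binds E-boxes near genes such as those of the period, cryptochrome and REV-ERB proteins. Period and cryptochrome proteins then block this pair, REV-ERB proteins (Nr1d1, Nr1d2) repress and ROR proteins activate genes with a ROR element, and the PAR bZIP factors Dbp, Tef and Hlf act on D-boxes against Nfil3.

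Each library gave 1361 to 2065 PCT nuclei with 6384766 to 12653247 UMIs, at a median of 3795.5 to 6464 UMIs and 1861.5 to 2611 genes per nucleus. Between 0 and 2 barcodes of PCT nuclei were shared by any pair of libraries, 22 over the 28 pairs. Replicates differed by far more than sampling noise, since chi-square per degree of freedom lay between 11.5 and 28.9, so no library was counted as a copy of another. Doublets were not called. Instead, the 21 markers of other cell classes were followed: none of them was at 0 in any library, and 49.8% to 78.6% of the PCT nuclei of a library held at least 2 of their UMIs. Their summed level was 1493 and 2803 CPM (counts per 1000000 UMIs) in Ctrl ZT4, 1911 and 1977 in Ctrl ZT16, 1285 and 1386 in cKOt ZT4, and 2056 and 1767 in cKOt ZT16. Most of it came from thick ascending limb genes, with 765 to 2131 CPM in PCT nuclei and 1012 to 1931 CPM in nuclei chosen by the endothelial gene Flt1. These Flt1 nuclei had at least 3 UMIs of Flt1, a UMI for fewer than 2 of the 5 rule markers, and at most 1 UMI each of Slc7a13 and Cyp7b1. Of the markers of other classes, none of the 20 that could be tested passed edgeR's test in any of the 5 comparisons within PCT nuclei given below. Their effects lay to one side in some: 2 of 20 were above 0 for genotype at ZT4 (median -0.38 on the log2 scale), 15 for time in cKOt (0.50) and 19 for the difference of time effects between genotypes (0.56), against 6 for time in Ctrl (-0.12) and 13 for genotype at ZT16 (0.19), and over all mRNAs the medians were -0.02 to 0.01. DESeq2 called Aqp2 with time in Ctrl and Umod with time in cKOt and with genotype at ZT4, where Umod stood at 131 and 220 CPM of mRNA UMIs in Ctrl and 70.5 and 77.2 in cKOt. Their part in those comparisons was not tested further.

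The identity of the nuclei was checked with genes that the rule did not use. These levels are CPM of all UMIs, given as the median over 8 libraries, and they are a description, since the nuclei were picked by related genes. Slc34a1, the main phosphate transporter of the brush border, stood at 5445 CPM in PCT nuclei, 2735 in S3-side nuclei (at least 2 UMIs of Slc7a13 or of Cyp7b1) and 428 in Flt1 nuclei. Slc4a4, the basolateral sodium bicarbonate exit of the early segments, stood at 3180 CPM against 1214 in S3-side nuclei. Slc7a9, the light chain of the cystine carrier, was at 159 CPM against 58.2. Hnf4a, a transcription factor of the whole proximal tubule, differed less, at 381 CPM against 353. Atp11a and Slc27a2, which lead the later segment, were at 324 and 447 CPM in PCT nuclei and at 1702 and 1455 in S3-side nuclei. Of the 15 proximal genes that the rule did not use, 8 were higher in PCT than in S3-side nuclei at the median and 7 lower, the latter including Slc16a9 (125 against 253 CPM), Slc22a6 (74.8 against 120) and Acsm1 (254 against 367), and all 15 were higher than in Flt1 nuclei. Flt1 nuclei were picked with few of the rule markers, which favours that last count, so nothing is read from it. Slc12a1, the sodium chloride carrier of the thick ascending limb, was at 814 CPM in PCT nuclei, 892 in Flt1 nuclei and 3108 in all other QC nuclei.

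The rule genes themselves varied from library to library. Slc5a12, a lactate and monocarboxylate carrier, had a UMI in 97.1% to 99.2% of the PCT nuclei of a library, Slc5a2, the glucose carrier SGLT2, in 83.9% to 93.6%, and Slc6a19, a carrier of neutral amino acids, in 58.5% to 87.5%. The basolateral amino acid carriers Slc7a7 and Slc7a8 had one in 71.5% to 91.4% and 71.0% to 90.8%. At the limit of the rule, nuclei with exactly 3 markers (3026) held a median of 301 CPM of Slc5a2 and nuclei with 2 markers (7100) held 75.1 CPM, beside 654 CPM in nuclei with 5 markers (6624). Slc12a1 ran the other way there, at 4255 CPM with 2 markers, 1709 with 3 and 437 with 5. Slc34a1 stood at 1439 CPM with 2 markers and at 4040 with 3.

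PCT nuclei made up 19.2% and 17.1% of the QC nuclei in the Ctrl ZT4 libraries, 15.7% and 12.7% in Ctrl ZT16, 18.7% and 17.7% in cKOt ZT4, and 21.2% and 18.8% in cKOt ZT16. The Ctrl ZT16 libraries were the lowest, and the other 6 lay between 17.1% and 21.2%. With at least 4 markers the shares were 15.4% and 14.1%, 12.0% and 9.35%, 14.6% and 14.3%, and 17.2% and 14.4% in the same order. When every nucleus was thinned to 1500 UMIs, which left out 247 to 1387 shallower nuclei per library, the rule took 16.9% and 14.0%, 10.4% and 10.0%, 16.2% and 12.5%, and 16.6% and 15.4%. Since the rule genes set these shares and some of them differed between the groups, no test was made. Slc6a19, for instance, stood at 646 and 792 CPM of mRNA UMIs in Ctrl ZT4, 318 and 279 in Ctrl ZT16, 384 and 500 in cKOt ZT4, and 239 and 270 in cKOt ZT16, so that ZT4 lay above ZT16 in each genotype without overlap.

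**Figure D1:**
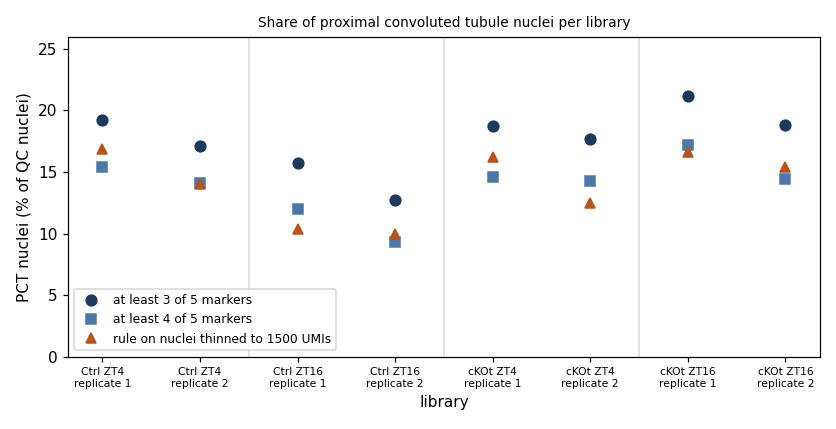
Share of QC nuclei taken as PCT in each of the 8 libraries, in percent, by the rule (circles), with at least 4 of the 5 markers (squares) and after thinning every nucleus to 1500 UMIs (triangles). Shares by the rule run from 12.7% to 21.2%, and both Ctrl ZT16 libraries have the lowest values under all 3.

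To compare groups, UMIs of the PCT nuclei were summed per library (pseudo-bulk). Levels from here on are CPM of the mRNA or of the lncRNA UMIs after TMM scaling, and differences are log2 fold changes ± SE from edgeR's quasi-likelihood test with Benjamini-Hochberg adjustment, called at an adjusted p under 0.05. The time effects and genotype effects share libraries: Ctrl ZT4 serves both the time effect in Ctrl and the genotype effect at ZT4, and Ctrl ZT16 serves both the former and the genotype effect at ZT16. So these values are set side by side and nothing is read from their likeness.

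In PCT nuclei of Ctrl mice, the clock genes Arntl, Npas2, Cry1 and Nfil3 rose from ZT4 to ZT16, and Nr1d1, Nr1d2 and Dbp fell. Genes of urate, carnitine and cystine transport and of albumin uptake changed too, by smaller steps. Of 13499 mRNAs, 55 (0.407%) were called between ZT16 and ZT4, 32 higher and 23 lower at ZT16. The call includes Slc6a19, on which nothing rests because the rule used it. DESeq2 called 221, all 55 among them, and the number ran from 11 without the second Ctrl ZT16 library to 126 without the first cKOt ZT4 library. Of the 16 clock genes 8 were called, 5 higher and 3 lower, at a median effect of 0.14 over the 16 and -0.02 over all mRNAs. Clock genes Arntl, Npas2, Cry1, Nr1d1 and Nr1d2 were called under each of the 12 other settings and with each library left out in turn.

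Arntl, which encodes BMAL1, stood at 14.4 and 15.5 CPM in Ctrl ZT4, 214 and 229 in Ctrl ZT16, 306 and 217 in cKOt ZT4, and 318 and 296 in cKOt ZT16. The Ctrl ZT4 libraries were low and the other 6 were high. UMIs per gene cannot be limited to the part of the gene that Cre removes, so these levels check neither the deletion nor the labels. The time effect in Ctrl was 3.89 ± 0.20 (adjusted p = 8.80e-05) and the genotype effect at ZT4 was 4.13 ± 0.20 (adjusted p = 2.74e-05).

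Npas2, the partner that can stand in for CLOCK, stood at 18.1 and 26.2 CPM in Ctrl ZT4, 250 and 244 in Ctrl ZT16, 581 and 494 in cKOt ZT4, and 548 and 570 in cKOt ZT16. Ctrl ZT4 was lowest, Ctrl ZT16 intermediate and cKOt highest at both times, without overlap between these 3 levels. It rose by 3.47 ± 0.20 from ZT4 to ZT16 in Ctrl (adjusted p = 0.000120) and was higher in cKOt by 4.60 ± 0.21 at ZT4 (adjusted p = 2.71e-05). At ZT16 the genotype effect was 1.18 ± 0.18 (adjusted p = 0.0479), a call that was lost without any of the 4 ZT16 libraries and with a replicate block (adjusted p = 0.0961).

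Cry1, a repressor of the BMAL1 pair, stood at 4.93 and 2.35 CPM in Ctrl ZT4, 42.1 and 40.3 in Ctrl ZT16, 56.5 and 43.8 in cKOt ZT4, and 57.5 and 58.1 in cKOt ZT16. Ctrl ZT4 alone was low. The time effect in Ctrl was 3.53 ± 0.29 (adjusted p = 0.000659), and the genotype effect at ZT4 was 3.81 ± 0.29 (adjusted p = 0.000517).

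The REV-ERB genes were the mirror image. Nr1d1 stood at 26.2 and 29.3 CPM in Ctrl ZT4, 0.758 and 0.576 in Ctrl ZT16, 2.00 and 4.18 in cKOt ZT4, and 0.497 and 0.842 in cKOt ZT16. Nr1d2 stood at 205 and 197 CPM in Ctrl ZT4, 28.4 and 32.4 in Ctrl ZT16, 32.4 and 37.9 in cKOt ZT4, and 12.4 and 19.7 in cKOt ZT16. Ctrl ZT4 alone was high. Nr1d1 fell by 5.31 ± 0.43 (adjusted p = 0.000659) and Nr1d2 by 2.73 ± 0.21 (adjusted p = 0.000654) from ZT4 to ZT16 in Ctrl, and in cKOt at ZT4 they were lower than in Ctrl, by -3.14 ± 0.33 (adjusted p = 0.00330) and -2.51 ± 0.21 (adjusted p = 0.00116). Nr1d1 overlaps Thra on the other strand, and since it is not given whether strand was used in counting, reads of overlapping genes may not be separated.

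Among the D-box factors, Dbp stood at 47.4 and 27.9 CPM in Ctrl ZT4 and at 1.20 to 3.88 CPM in the other 6 libraries. It fell by 3.88 ± 0.42 to ZT16 in Ctrl (adjusted p = 0.00570, lost without either Ctrl ZT16 library), and the genotype effect at ZT4 was -3.73 ± 0.40 (adjusted p = 0.00330). Nfil3, which opposes Dbp, stood at 2.46 and 1.53 CPM in Ctrl ZT4 and at 12.3 to 42.8 in the other libraries, with effects of 3.66 ± 0.62 (adjusted p = 0.0464) and 3.99 ± 0.61 (adjusted p = 0.0271). In the same order, these calls of Nfil3 were kept in 3 and 4 of the 8 fits without a library. Both were lost without either Ctrl ZT4 library and with a replicate block. Tef stood at 402 and 376 CPM in Ctrl ZT4, 220 and 193 in Ctrl ZT16, 152 and 208 in cKOt ZT4, and 119 and 161 in cKOt ZT16. Its genotype effect at ZT4, -1.11 ± 0.20, had an adjusted p of 0.050, just under the limit, and passed in 1 of the 8 fits without a library.

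The remaining clock genes were not called between time points in Ctrl. Per2 came nearest, at 59.0 and 43.7 CPM in Ctrl ZT4 and 203 and 173 in Ctrl ZT16 (1.87 ± 0.33, adjusted p = 0.0531), and DESeq2 called it (adjusted p = 3.03e-07). Clock itself stood at 162 and 149 CPM in Ctrl ZT4 and 210 and 224 in Ctrl ZT16 (0.48 ± 0.13, adjusted p = 0.224). Per1, a period gene, ran from 5.67 to 23.9 CPM with groups that overlapped. Cry2, Hlf, Rora and Rorb differed by -0.51 to 0.29, with adjusted p from 0.286 to 0.991.

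**Figure D2:**
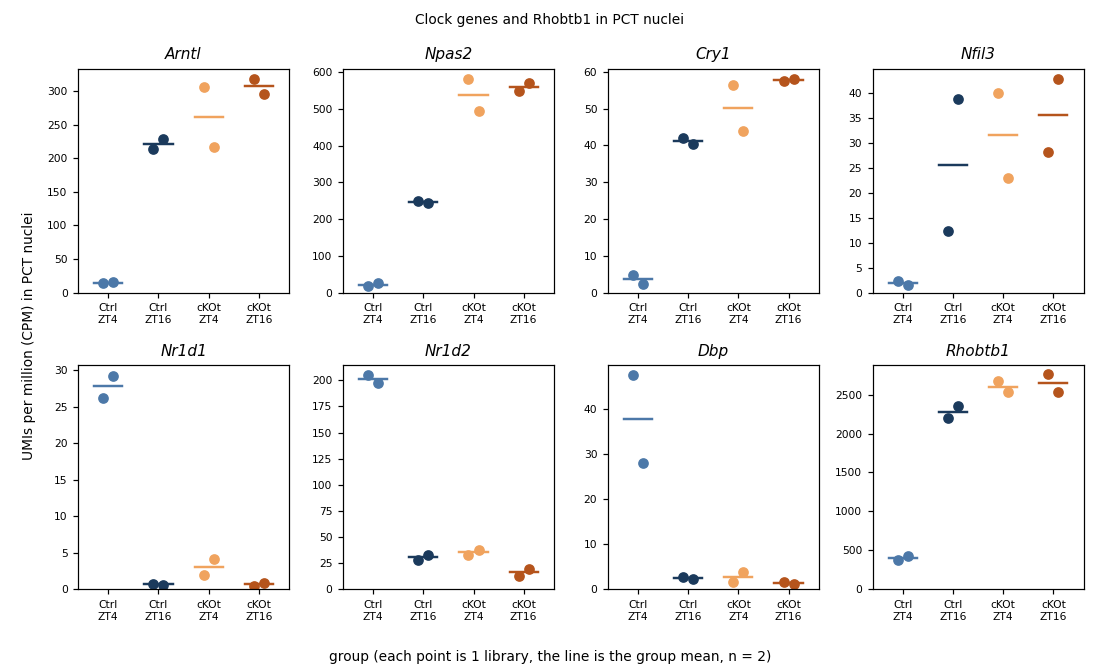
Levels of 7 clock genes and of Rhobtb1 in PCT nuclei, in CPM on linear axes from 0, with 1 point per library and a line at the mean of each group (n = 2). In Arntl, Npas2, Cry1, Nfil3 and Rhobtb1 the Ctrl ZT4 libraries lie below all others, and in Nr1d1, Nr1d2 and Dbp they lie above all others.

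Of 12 clock output genes 2 were called between time points in Ctrl, beside 0.407% of all mRNAs, and 3 between genotypes at ZT4, beside 0.557%. Per3, a period gene whose product is not needed for the rhythm, stood at 71.2 and 66.1 CPM in Ctrl ZT4, 26.8 and 17.1 in Ctrl ZT16, 15.8 and 20.0 in cKOt ZT4, and 17.2 and 15.4 in cKOt ZT16. Ciart, a repressor of the BMAL1 pair, stood at 10.9 and 8.45 CPM in Ctrl ZT4 and at 0.998 to 3.57 in the other libraries. Lonrf3, a RING finger gene, stood at 27.3 and 23.4 CPM in Ctrl ZT4 and at 59.7 to 94.9 in the other libraries. The genotype effects at ZT4 were -1.93 ± 0.22 for Per3 (adjusted p = 0.00555), -2.92 ± 0.35 for Ciart (adjusted p = 0.00681) and 1.73 ± 0.18 for Lonrf3 (adjusted p = 0.00330), and each was called with every library left out in turn. The time effects in Ctrl, -1.63 ± 0.22 for Per3 (adjusted p = 0.0225) and 1.35 ± 0.18 for Lonrf3 (adjusted p = 0.0223), were kept in 3 and 2 of the 8 fits without a library.

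To show what lies at the start sites of the genes that moved, promoters of 300 bases (250 before and 50 after the start) were taken from RefSeq on GRCm38.p6, the assembly that mm10 names, and searched on both strands for the E-box CACGTG, the D-box TTATGNAA and the core of the ROR element, TNGGTCA. Of the 12 clock and output genes called in some comparison, 11 had a promoter there: 4 held an E-box, 1 a D-box, 4 a ROR core and 4 (Dbp, Npas2, Nr1d1 and Nr1d2) none. Among all 32851 promoters, 7.15% held the E-box, 3.38% the D-box and 11.0% the ROR core. A match is a run of letters and not a site shown to be bound, and a window without one says nothing of sites elsewhere. Shown, with motifs in capitals, are Arntl at chr7:113207261-113207560 (plus strand, 3 ROR cores), which was low in Ctrl ZT4 alone, Cry1 at chr10:85185005-85185304 (minus strand, 1 E-box), which moved the same way, and Ciart at chr3:95882179-95882478 (minus strand, 3 E-boxes) and Per3 at chr4:151044616-151044915 (minus strand, 2 D-boxes and 1 ROR core), which were high in Ctrl ZT4 alone.
Arntl: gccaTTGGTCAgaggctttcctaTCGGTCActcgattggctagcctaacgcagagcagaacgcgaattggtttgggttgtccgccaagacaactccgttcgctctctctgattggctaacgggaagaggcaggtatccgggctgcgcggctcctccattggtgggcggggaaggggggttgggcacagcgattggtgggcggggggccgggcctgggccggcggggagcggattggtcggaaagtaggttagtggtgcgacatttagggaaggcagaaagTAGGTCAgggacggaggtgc
Cry1: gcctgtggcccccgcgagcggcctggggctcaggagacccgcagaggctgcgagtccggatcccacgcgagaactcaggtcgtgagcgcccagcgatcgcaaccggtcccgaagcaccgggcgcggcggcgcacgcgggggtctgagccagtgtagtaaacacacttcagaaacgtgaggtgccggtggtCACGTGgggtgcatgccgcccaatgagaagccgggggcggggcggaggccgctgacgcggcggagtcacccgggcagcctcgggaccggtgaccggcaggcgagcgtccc
Ciart: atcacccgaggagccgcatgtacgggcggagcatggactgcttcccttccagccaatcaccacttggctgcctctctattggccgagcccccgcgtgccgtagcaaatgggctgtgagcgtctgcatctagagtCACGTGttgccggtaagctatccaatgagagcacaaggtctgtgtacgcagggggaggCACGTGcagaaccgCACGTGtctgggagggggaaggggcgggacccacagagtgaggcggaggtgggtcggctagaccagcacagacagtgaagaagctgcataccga
Per3: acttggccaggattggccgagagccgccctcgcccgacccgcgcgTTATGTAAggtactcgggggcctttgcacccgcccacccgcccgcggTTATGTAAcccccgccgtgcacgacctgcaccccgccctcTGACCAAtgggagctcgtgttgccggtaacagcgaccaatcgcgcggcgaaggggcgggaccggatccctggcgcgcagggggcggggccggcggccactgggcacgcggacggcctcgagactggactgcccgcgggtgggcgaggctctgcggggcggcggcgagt

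Outside the clock, Rhobtb1, a gene with BTB domains, had the group order of Arntl. It stood at 377 and 431 CPM in Ctrl ZT4, 2198 and 2348 in Ctrl ZT16, 2669 and 2538 in cKOt ZT4, and 2761 and 2533 in cKOt ZT16, so that Ctrl ZT4 was alone at the low end. Its time effect in Ctrl was 2.49 ± 0.16 (adjusted p = 0.000248) and its genotype effect at ZT4 was 2.69 ± 0.16 (adjusted p = 0.000101). Alk, a receptor tyrosine kinase, stood at 38.3 and 42.6 CPM in Ctrl ZT4, 4.01 and 4.80 in Ctrl ZT16, 30.1 and 25.5 in cKOt ZT4, and 5.17 and 7.58 in cKOt ZT16. ZT4 was above ZT16 in both genotypes, with a time effect of -3.22 ± 0.24 in Ctrl (adjusted p = 0.000559). S3-side nuclei held more Alk, at 304 and 238 CPM in Ctrl ZT4 and 37.1 and 46.8 in Ctrl ZT16. In cKOt they held 162 and 175 CPM at ZT4 and 52.7 and 82.6 at ZT16. The part of free RNA in the level of Alk in PCT nuclei was not tested. Ccdc148, a coiled-coil gene, fell by 1.21 ± 0.15 to ZT16 in Ctrl (adjusted p = 0.0135), from 180 and 187 CPM to 83.3 and 75.4, a call lost without any of the 4 Ctrl libraries.

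The share of nuclei with a UMI is given beside that in Flt1 nuclei, which can express these genes too. Npas2 had a UMI in 7.08% of the PCT nuclei of Ctrl ZT4, 54.2% of Ctrl ZT16, 79.3% of cKOt ZT4 and 79.0% of cKOt ZT16. In Flt1 nuclei, with 1808 to 2596.5 UMIs at the median, the shares were 0.652%, 3.16%, 9.42% and 12.8%. With every nucleus thinned to 1500 UMIs, the shares of PCT nuclei were 2.50%, 25.2%, 44.6% and 47.0%, and those of Flt1 nuclei 0.347%, 1.91%, 5.76% and 8.78%. Rhobtb1 had a UMI in 63.0%, 94.5%, 96.3% and 94.6% of the PCT nuclei in the same order, beside 19.9%, 24.6%, 32.6% and 36.5% of Flt1 nuclei, and in 35.4%, 85.8%, 89.7% and 88.2% of PCT nuclei after thinning. For Arntl the shares of PCT nuclei were 5.11%, 56.5%, 62.4% and 67.9%, and 1.12%, 25.2%, 26.4% and 31.6% after thinning, beside 5.20%, 11.4%, 8.58% and 13.2% of thinned Flt1 nuclei. In Ctrl ZT4 the share for Arntl was thus lower in PCT than in Flt1 nuclei, and no expression is read from it. Thinned PCT nuclei of Ctrl ZT4 did not exceed thinned Flt1 nuclei for Nr1d1 (3.97% against 4.02%), Nr1d2 (20.4% against 20.7%) and Cry1 (0.489% against 1.11%) either, and did for Dbp (5.00% against 3.95%) and Alk (3.56% against 2.01%). The part of free RNA in these shares was not tested.

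Several genes of PCT transport changed with time in Ctrl mice, in both directions, each by less than the called clock genes. Cubn encodes cubilin, the brush border receptor for filtered albumin and vitamin B12 carriers. It stood at 850 and 1058 CPM in Ctrl ZT4, 389 and 377 in Ctrl ZT16, 596 and 668 in cKOt ZT4, and 545 and 674 in cKOt ZT16. The Ctrl groups lay at either end with cKOt between them, and Cubn fell by 1.32 ± 0.17 to ZT16 in Ctrl (adjusted p = 0.0196). This call was lost without the second Ctrl ZT4 library, the one with the most thick ascending limb UMIs in its PCT nuclei, and without either Ctrl ZT16 library. Lrp2, the megalin gene that works with cubilin, stood at 2609 and 2160 CPM in Ctrl ZT4 and 1872 and 2889 in Ctrl ZT16, with overlap, and Cubn was the 1 called gene of 15 in endocytosis (median effect -0.04), beside 0.407% of all mRNAs.

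Among organic ion and urate carriers 3 of 22 were called, beside 0.407% of all mRNAs, 1 higher and 2 lower at ZT16 (median -0.08). Slc22a12, the urate exchanger URAT1, stood at 100 and 71.5 CPM in Ctrl ZT4 and 205 and 229 in Ctrl ZT16 and rose by 1.34 ± 0.21 (adjusted p = 0.0386). Slc2a9, a urate carrier of the GLUT family, stood at 40.0 and 39.7 CPM in Ctrl ZT4 and 20.9 and 17.7 in Ctrl ZT16 and fell by 1.04 ± 0.17 (adjusted p = 0.0459). So 2 carriers of urate changed in opposite directions in the sums of PCT nuclei. After thinning, 4.66% and 2.24% of the PCT nuclei of Ctrl ZT4 and ZT16 had a UMI of Slc2a9, beside 4.44% and 2.81% of Flt1 nuclei. The time effect of Slc2a9 in Ctrl differed from that in Flt1 nuclei by -0.03 ± 0.24 (adjusted p = 0.988). No expression of Slc2a9 in the PCT is read from these shares, and the part of free RNA in its level was not tested. Slc22a5, the carnitine carrier OCTN2, stood at 460 and 487 CPM in Ctrl ZT4 and 270 and 254 in Ctrl ZT16 and fell by 0.86 ± 0.14 (adjusted p = 0.0451). Slc7a9, the 1 gene that edgeR called of 16 tested for amino acid transport (DESeq2 called Slc6a18, Slc6a13 and Slc15a2 too), stood at 289 and 293 CPM in Ctrl ZT4 and 157 and 136 in Ctrl ZT16 and fell by 0.98 ± 0.16 (adjusted p = 0.0430). These 4 calls lay close to the limit: each was kept in 2 of the 8 fits without a library, and those of Slc7a9 and Slc2a9 were lost with a replicate block (adjusted p = 0.0512 and 0.0597). In cKOt edgeR called none of the 4 genes with time and DESeq2 called Slc22a5, and the difference between genotypes in their time effects was not called either.

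**Figure D3:**
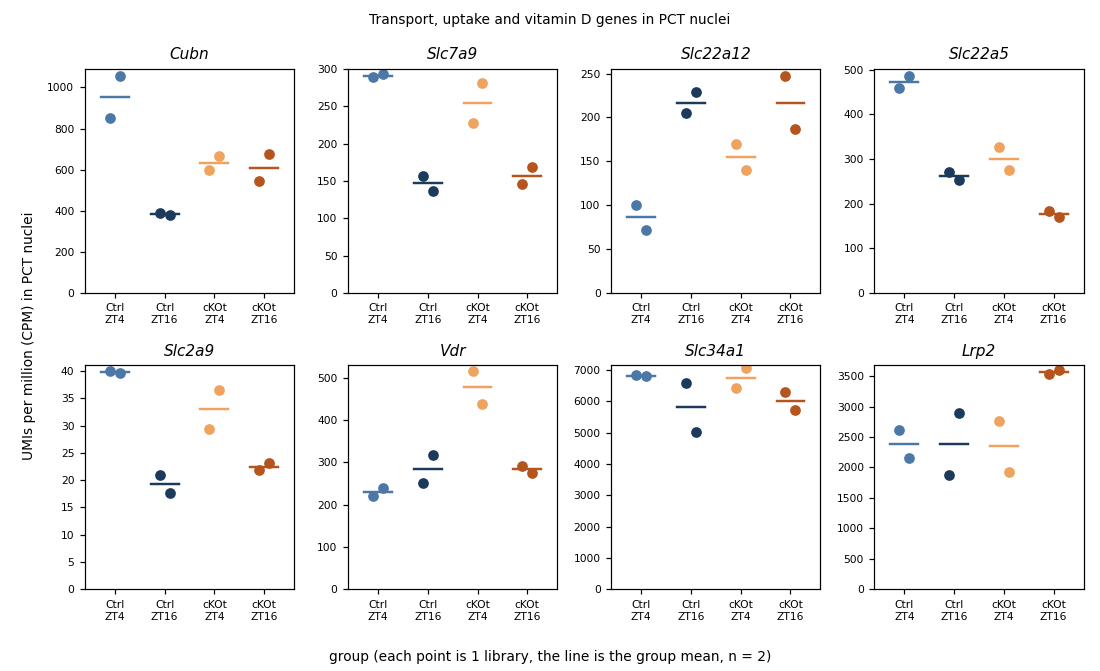
Levels of 8 genes of PCT transport in PCT nuclei, in CPM on linear axes from 0, with 1 point per library and a line at the group mean (n = 2). Cubn, Slc7a9, Slc22a5 and Slc2a9 are lower and Slc22a12 is higher at ZT16 than at ZT4 in Ctrl, Vdr is highest in cKOt ZT4, and the groups overlap between time points in Ctrl for Lrp2.

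In the other groups of PCT genes nothing was called between time points in Ctrl. This held for 15 genes of glucose transport and gluconeogenesis, 15 of phosphate and vitamin D handling, 19 of sodium, water, acid-base and ammonia handling, 23 of fatty acid oxidation and PPAR alpha targets, 13 transcription factors of the proximal tubule, 17 immediate early and heat shock genes, 10 genes of tubular injury and 8 glucocorticoid-responsive genes, where edgeR with unadjusted p under 0.05 took 10.3% of all mRNAs. DESeq2 called Pck1, which encodes the enzyme that commits to gluconeogenesis, 2 genes of sodium and acid-base handling, and the glucocorticoid-responsive genes Tsc22d3 and Sgk1. Tsc22d3 stood at 75.3 and 47.8 CPM in Ctrl ZT4 and 167 and 176 in Ctrl ZT16, and Sgk1, a kinase that raises sodium transport, at 24.9 and 18.2 and at 58.3 and 56.4. Both had groups that did not overlap. The median over the 8 glucocorticoid-responsive genes was 0.75, with 6 of 8 above 0, beside a median of -0.02 over all mRNAs. The shares of all mRNAs without overlap and with an effect above 0 are not given. So nothing is read from either count. Slc34a1 ran from 5022 to 7059 CPM over the 8 libraries and Slc9a3, the brush border sodium proton exchanger, from 238 to 433.

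Among lncRNAs, 35 of 2312 (1.51%) were called between time points in Ctrl, 16 higher and 19 lower at ZT16. DESeq2 called 31 (28 of them shared), and the number fell to 9 without the first Ctrl ZT16 library and to 11 when mRNAs and lncRNAs were scaled and fitted together. It was 17 without nuclei that held UMIs of other classes. Gm21887 stood at 10.3 and 27.0 CPM in Ctrl ZT4, 165 and 113 in Ctrl ZT16, 22.3 and 22.2 in cKOt ZT4, and 62.9 and 94.4 in cKOt ZT16. It was higher at ZT16 in both genotypes, by 2.87 ± 0.38 in Ctrl (adjusted p = 0.000281). In Flt1 nuclei Gm21887 stood at 4.69 and 47.1 CPM in Ctrl ZT4 and at 235 and 117 in Ctrl ZT16. In PCT nuclei Gm15581 went the other way, from 247 and 190 CPM in Ctrl ZT4 to 45.5 and 36.0 in Ctrl ZT16. It fell by 2.40 ± 0.30 (adjusted p = 0.000274).

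Gm26652 stood at 30.1 and 33.6 CPM in Ctrl ZT4, 116 and 101 in Ctrl ZT16, 252 and 201 in cKOt ZT4, and 230 and 194 in cKOt ZT16. It thus had the order of Npas2, with a time effect of 1.77 ± 0.27 in Ctrl (adjusted p = 0.00152) and a genotype effect of 2.82 ± 0.28 at ZT4 (adjusted p = 5.09e-06). C430014B12Rik overlaps Col4a3 and stood at 93.1 and 93.0 CPM in Ctrl ZT4 and 253 to 339 in the other libraries (1.67 ± 0.26 with time in Ctrl, adjusted p = 0.00152). The next 2 by p among those that fell were 4930528G23Rik (-2.83 ± 0.48, adjusted p = 0.00385) and 4930533I22Rik (-2.24 ± 0.40, adjusted p = 0.00479), the latter at a locus shared with the vomeronasal receptor genes Vmn1r18, Vmn1r19 and Vmn1r20. In S3-side nuclei 4930533I22Rik stood at 2477 and 2359 CPM in Ctrl ZT4 and at 1094 and 1253 in Ctrl ZT16. After thinning, 2.99% of the PCT nuclei and 1.46% of the Flt1 nuclei of Ctrl ZT4 had a UMI of it. The part of free RNA in its level was not tested.

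In PCT nuclei of cKOt mice edgeR called none of 13686 mRNAs between ZT16 and ZT4 (0%), while 1148 (8.39%) had an unadjusted p under 0.05 and DESeq2 called 85. Up to 12 were called when a library was left out, without the first cKOt ZT4 library. Arntl differed by 0.23 ± 0.17 (adjusted p = 0.805). Nr1d1 and Nr1d2 were lower at ZT16 by -2.23 ± 0.47 (adjusted p = 0.238) and -1.14 ± 0.21 (adjusted p = 0.222), with groups that did not overlap, and DESeq2 called both (adjusted p = 0.0281 and 0.00358). In Flt1 nuclei of cKOt, Nr1d1 fell from 31.1 and 46.1 CPM to 2.52 and 2.30, and Nr1d2 from 157 and 173 to 33.2 and 39.0. After thinning, 0.435% and 3.86% of the PCT nuclei of cKOt ZT4 had a UMI of them, beside 4.96% and 18.6% of Flt1 nuclei. The part of free RNA in both falls was not tested. Of the lncRNAs, 18 of 2485 (0.724%) were called, 6 higher and 12 lower. DESeq2 called 15, and the number ran from 2 without the second cKOt ZT4 library to 24 without the first Ctrl ZT4 library. It was 0 in a joint fit with mRNAs or with 4 markers in the rule. Gm43821, at 48.5 and 61.0 CPM in cKOt ZT4 and 7.61 and 9.08 in cKOt ZT16 (-2.71 ± 0.39, adjusted p = 0.00201), was called with every library left out in turn. It stood at 23.3 and 14.9 CPM in Ctrl ZT4 and at 5.88 and 8.00 in Ctrl ZT16. The others with the smallest p that fell were 4930488N15Rik and Gm30097, by 2.61 ± 0.49 (adjusted p = 0.0280) and 1.26 ± 0.26 (adjusted p = 0.0374). Those that rose were Gm47283, Gm21887 and Gm47564. They rose by 3.40 ± 0.53 (adjusted p = 0.00392), 1.82 ± 0.37 (adjusted p = 0.0374) and 1.27 ± 0.27 (adjusted p = 0.0374). In Flt1 nuclei Gm47283 stood at 89.6 and 180 CPM in cKOt ZT4 and at 530 and 1867 in cKOt ZT16. Gm21887 stood there at 26.9 and 23.0 and at 60.6 and 151 CPM. After thinning, 1.71% and 17.7% of the PCT nuclei of cKOt ZT4 and ZT16 had a UMI of Gm47283. The shares of Flt1 nuclei were 2.41% and 17.8%, so no expression of Gm47283 in the PCT is read from these shares.

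The time effect differed between genotypes, by the test of the difference itself, for 5 of 13906 mRNAs (0.0360%), all 5 with a lower value in cKOt. DESeq2 called 33, and 4 to 9 were called without 1 library. Arntl had the smallest p (-3.65 ± 0.26, adjusted p = 0.00165), and Npas2 (-3.42 ± 0.26, adjusted p = 0.00165), Rhobtb1 (-2.47 ± 0.22, adjusted p = 0.00326) and Cry1 (-3.32 ± 0.37, adjusted p = 0.0155) were called too. Arntl, Npas2 and Rhobtb1 were called in every fit, and Cry1 was lost without any of the 4 ZT16 libraries. So 4 of 16 clock genes differed here, and DESeq2 added Nr1d2 (edgeR 1.59 ± 0.30, adjusted p = 0.293, DESeq2 adjusted p = 0.00438) and Dbp (edgeR adjusted p = 0.579, DESeq2 adjusted p = 0.00759). Of 2614 lncRNAs edgeR called none (0%), with 163 at an unadjusted p under 0.05, and DESeq2 called 4.

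Between genotypes at ZT4, 76 of 13649 mRNAs (0.557%) were called in PCT nuclei, 49 higher and 27 lower in cKOt. DESeq2 called 216, all 76 among them, and the number ran from 32 without the second Ctrl ZT4 library to 96 without the second cKOt ZT4 library. Of the 16 clock genes 9 were called, 5 higher (Arntl, Npas2, Cry1 and Nfil3 among them) and 4 lower (Nr1d1, Nr1d2, Dbp, Tef), with a median of 0.41 over the list and 0.00 over all mRNAs. A further set of called genes has other roles. Ddc, which encodes the enzyme that makes dopamine from L-DOPA in the PCT, stood at 78.9 and 99.6 CPM in Ctrl ZT4, 232 and 212 in Ctrl ZT16, 292 and 339 in cKOt ZT4, and 290 and 328 in cKOt ZT16. Ctrl ZT4 was the lowest, and cKOt was higher by 1.82 ± 0.17 at ZT4 (adjusted p = 0.00220). The lncRNA 1700042O10Rik lies on the other strand of Ddc and was called as well.

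Cyp2a4 and Cyp2a5, a pair of near-identical genes of steroid and drug hydroxylation whose reads may not be separated, were low in all 4 cKOt libraries at both times. Cyp2a5 stood at 13.6 and 11.0 CPM in Ctrl ZT4, 8.45 and 5.57 in Ctrl ZT16, 0.499 and 0.299 in cKOt ZT4, and 0.298 and 0.120 in cKOt ZT16. Cyp2a4 stood at 12.5 to 14.9 CPM in the Ctrl libraries and 0.842 to 1.75 in the cKOt libraries. Other nuclei held Cyp2a4 as well, at 34.8 to 53.4 CPM in Ctrl and 4.56 to 7.66 in cKOt in S3-side nuclei, and at 16.9 to 29.3 and 1.17 to 4.53 CPM in Flt1 nuclei. After thinning, 1.95% and 1.50% of the PCT nuclei of Ctrl ZT4 and ZT16 had a UMI of it, beside 2.50% and 3.36% of Flt1 nuclei, so no expression in the PCT is read from these shares. Its genotype effect over both times in PCT nuclei differed from that in S3-side nuclei by -0.21 ± 0.23 (adjusted p = 0.848) and from that in Flt1 nuclei by -0.25 ± 0.36 (adjusted p = 0.956). At ZT4 the effects were -4.93 ± 0.45 for Cyp2a5 (adjusted p = 0.00208) and -3.06 ± 0.31 for Cyp2a4 (adjusted p = 0.00296), and at ZT16 -4.94 ± 0.51 (adjusted p = 0.00615) and -3.28 ± 0.32 (adjusted p = 0.00606).

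In the lists of PCT functions, genotype at ZT4 touched few genes. Vdr, the vitamin D receptor, was the 1 called gene of 15 in phosphate and vitamin D handling, beside 0.557% of all mRNAs. It stood at 220 and 239 CPM in Ctrl ZT4, 252 and 318 in Ctrl ZT16, 515 and 438 in cKOt ZT4, and 292 and 274 in cKOt ZT16, highest in cKOt ZT4, with an effect of 1.05 ± 0.16 (adjusted p = 0.0275) that was kept in 3 of 8 fits without a library. Dcdc2a, a doublecortin gene that injured tubules express, was the 1 called of 10 injury genes tested (again beside 0.557%), at 7.25 and 8.22 CPM in Ctrl ZT4 and 25.2 and 30.9 in cKOt ZT4 (1.85 ± 0.32, adjusted p = 0.0414, kept in 2 of 8). In S3-side nuclei Dcdc2a stood at 46.4 and 48.7 CPM in Ctrl ZT4 and at 107 and 210 in cKOt ZT4. Flt1 nuclei held 6.50 and 6.05 CPM and 14.1 and 30.3 CPM of it. After thinning, 0.977% and 2.75% of the PCT nuclei of Ctrl ZT4 and cKOt ZT4 had a UMI, beside 0.277% and 2.35% of Flt1 nuclei. The part of free RNA in its level was not tested. Havcr1, the injury marker KIM-1, stood at 0 to 0.597 CPM in the PCT nuclei of every library. None was called among genes of glucose handling, sodium and acid-base handling, amino acid transport, endocytosis, organic ion and urate transport, fatty acid oxidation, proximal transcription factors, or immediate early and heat shock genes. DESeq2 called 1 gene of glucose handling (Pck1), 1 transcription factor, 3 of organic ion and urate transport, 1 of sodium and acid-base handling and the heat shock gene Hspa1a.

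Among lncRNAs 32 of 2446 (1.31%) were called at ZT4, 26 higher and 6 lower in cKOt. DESeq2 called 26, and the lowest count was 12, without either Ctrl ZT4 library and in a joint fit with mRNAs. Besides Gm26652, those with the smallest p were Gm53, at 87.7 and 149 CPM in Ctrl ZT4 and 668 and 616 in cKOt ZT4 (2.44 ± 0.28, adjusted p = 3.85e-05), and Gm43581, at 8.90 and 16.0 against 75.3 and 180 CPM (3.34 ± 0.41, adjusted p = 7.55e-05). Gm43581 lies on the strand of Slc16a1, a lactate carrier that was called in the same direction, and their reads may not be separated. Lower in cKOt were Gm47564, at 142 and 184 against 33.4 and 43.9 CPM (-2.07 ± 0.27, adjusted p = 0.000141), Gm17276, at 552 and 493 against 174 and 141 CPM (-1.73 ± 0.26, adjusted p = 0.000462), and Gm31718, at 2060 and 1755 against 792 and 804 CPM (-1.26 ± 0.22, adjusted p = 0.00352).

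At ZT16 genotype changed fewer genes of the PCT than at ZT4 by this test. Ces1d, Grid1, Fhad1, Vmn1r32, Dlg2, Cyp2a4, Cyp2a5 and Npas2 were called at both times. Of 13556 mRNAs 23 (0.170%) were called, 10 higher and 13 lower in cKOt. DESeq2 called 71, 14 were called with a replicate block, and without the second cKOt ZT16 library none was, so no single call below stands apart from that library. Of the 16 clock genes edgeR called Npas2, and DESeq2 called Npas2 and Nr1d2. Ces1d, a carboxylesterase that splits stored lipid and drugs, stood at 101 and 104 CPM in Ctrl ZT4, 160 and 211 in Ctrl ZT16, 14.2 and 29.6 in cKOt ZT4, and 15.3 and 11.4 in cKOt ZT16. It was low in every cKOt library, by -3.79 ± 0.33 at ZT16 (adjusted p = 0.00447).

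Grid1, a glutamate receptor gene of the delta class, and Nckap5, a microtubule-associated gene, were higher in cKOt. Grid1 stood at 81.4 to 95.1 CPM in the Ctrl libraries, 208 and 174 in cKOt ZT4, and 309 and 355 in cKOt ZT16 (1.91 ± 0.16 at ZT16, adjusted p = 0.00447). Nckap5 stood at 156 to 257 CPM in Ctrl, 429 and 397 in cKOt ZT4, and 696 and 745 in cKOt ZT16 (1.96 ± 0.19, adjusted p = 0.00549). Col27a1, a fibrillar collagen gene, stood at 304 and 347 CPM in Ctrl ZT4, 597 and 652 in Ctrl ZT16, and 204 to 219 in the cKOt libraries (-1.57 ± 0.14 at ZT16, adjusted p = 0.00497). The Ctrl ZT16 libraries were the highest for Col27a1, and the cKOt ZT16 libraries for Grid1 and Nckap5.

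Fhad1, a forkhead-associated domain gene, stood at 1.06 to 3.33 CPM in Ctrl, 19.3 and 13.2 in cKOt ZT4, and 25.7 and 26.6 in cKOt ZT16 (4.03 ± 0.42 at ZT16, adjusted p = 0.00615). Opposite-strand lncRNAs overlap it. Vmn1r32, a vomeronasal receptor gene, was at 0 in all 4 Ctrl libraries and at 10.9 and 15.5 CPM in cKOt ZT4 and 10.2 and 11.2 in cKOt ZT16. It was called at both times (adjusted p = 0.00259 at ZT4 and 0.00615 at ZT16), and against a floor of 3 counts over the group it was at least 51.1-fold higher at ZT16. Dlg2, a synaptic scaffold gene, stood at 234 and 206 CPM in Ctrl ZT16 and 73.6 and 72.3 in cKOt ZT16 (-1.59 ± 0.17, adjusted p = 0.00615).

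Of the remaining called genes named by rank or list at ZT16, Susd3 stood at 43.0 and 52.2 against 16.6 and 13.1 CPM in Ctrl and cKOt (-1.67 ± 0.19, adjusted p = 0.0119), Plod2, a lysyl hydroxylase of collagen, at 44.7 and 52.2 against 119 and 116 CPM (1.28 ± 0.17, adjusted p = 0.0264), and Col6a6, a collagen VI chain, at 1.41 and 1.73 against 14.0 and 27.9 CPM (3.75 ± 0.51, adjusted p = 0.0300). In S3-side nuclei Col6a6 stood at 22.9 and 17.7 CPM in Ctrl ZT16 and at 170 and 284 in cKOt ZT16. Flt1 nuclei held 1.27 and 2.13 CPM and 11.6 and 21.1 CPM of it. After thinning, 2.37% of the PCT nuclei and 2.18% of the Flt1 nuclei of cKOt ZT16 had a UMI of Col6a6. The part of free RNA in its level was not tested. Angptl4 is a PPAR target whose product holds back lipoprotein lipase. It was the 1 called of 24 tested genes of fatty acid oxidation and PPAR alpha, beside 0.170% of all mRNAs. It stood at 9.75 and 7.29 CPM in Ctrl ZT16 and 1.89 and 1.20 in cKOt ZT16 (-2.45 ± 0.36, adjusted p = 0.0381), kept in 3 of 8 fits without a library and lost with a replicate block (adjusted p = 0.0961). The median over that list was -0.37, with 4 of 24 above 0, beside a median of 0.01 over all mRNAs. Cpt1a, which starts mitochondrial oxidation, stood at 170 and 156 against 114 and 135 CPM and was not called.

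**Figure D4:**
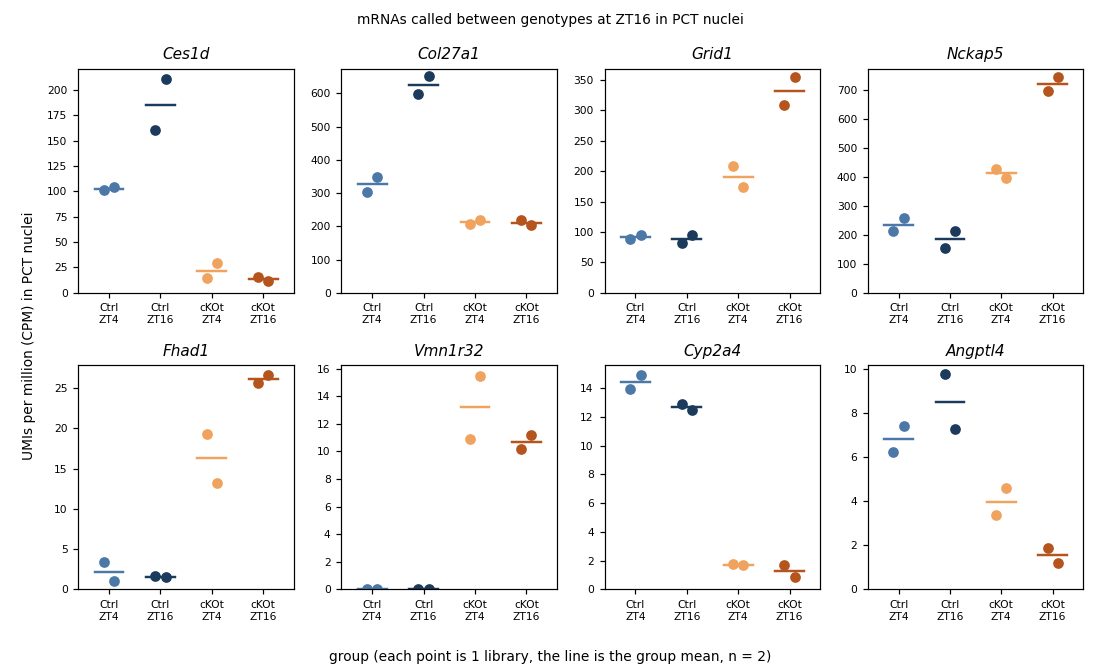
Levels of 8 genes called between genotypes in PCT nuclei, in CPM on linear axes from 0, with 1 point per library and a line at the group mean (n = 2). At ZT16 Ces1d, Col27a1, Cyp2a4 and Angptl4 are lower in cKOt, and Grid1, Nckap5, Fhad1 and Vmn1r32 are higher. Vmn1r32 is at 0 in all 4 Ctrl libraries.

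For lncRNAs 6 of 2352 (0.255%) were called at ZT16, 2 higher and 4 lower. DESeq2 called 7, a joint fit with mRNAs 0, and none was called without the first Ctrl ZT16 library. Gm13936 stood at 14.7 and 18.0 CPM in Ctrl ZT16 and 122 and 260 in cKOt ZT16 (3.56 ± 0.46, adjusted p = 0.000403), and Gm33906 at 44.1 and 139 against 992 and 971 CPM (3.45 ± 0.51, adjusted p = 0.00167). In Ctrl ZT4 both were higher than in Ctrl ZT16, at 41.8 and 115 CPM and at 538 and 308. In S3-side nuclei Gm13936 stood at 139 and 70.7 CPM in Ctrl ZT16 and at 807 and 1250 in cKOt ZT16. Gm33906 stood there at 168 and 697 and at 3450 and 5187 CPM. The Flt1 nuclei of cKOt ZT16 held 102 and 151 CPM of Gm13936 and 371 and 548 CPM of Gm33906. After thinning, 2.83% and 10.1% of the PCT nuclei of cKOt ZT16 had a UMI of them, beside 1.25% and 7.59% of Flt1 nuclei. The part of free RNA was not tested. Gm13412 was lower in cKOt by -2.53 ± 0.42 (adjusted p = 0.00534), Gm47564 by -1.40 ± 0.26 (adjusted p = 0.0159) and Gm47320, opposite Acvr2b, by -2.05 ± 0.39 (adjusted p = 0.0174).

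Whether these effects differ from those in other nuclei was tested in 1 model of 16 sums with the library as a block, for 18361 S3-side nuclei and 8029 Flt1 nuclei. The Pax8 promoter is active in S3 cells and not in endothelium. The time effect in Ctrl differed between PCT and S3-side nuclei for 18 of 13442 mRNAs (0.134%), 13 with a higher and 5 with a lower value in PCT nuclei, and DESeq2 called 28. Without the first Ctrl ZT16 library 4 were called. Arntl stood at 29.1 and 29.0 CPM in the S3-side nuclei of Ctrl ZT4 and at 143 and 159 in Ctrl ZT16, an effect of 2.38, and its effect was larger in PCT nuclei by 1.50 ± 0.11 (adjusted p = 0.000249). Npas2 stood there at 22.8 and 33.4 and at 134 and 156 CPM, and the difference was 1.10 ± 0.12 (adjusted p = 0.00361). In each Ctrl library, the PCT nuclei were below the S3-side nuclei at ZT4 and above them at ZT16 for both genes, on levels that were scaled separately in each kind of nuclei.

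For Nr1d2 the fall to ZT16 was larger in PCT nuclei (-1.09 ± 0.11, adjusted p = 0.00183). Rhobtb1 differed by 0.52 ± 0.08 (adjusted p = 0.0400). For Cry1 the difference of 0.48 ± 0.30 was not called (adjusted p = 0.677), nor were those for Alk (-0.53 ± 0.25, adjusted p = 0.540), Dbp (-0.02 ± 0.37, adjusted p = 1.000) and Cubn (-0.14 ± 0.10, adjusted p = 0.729).

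Against Flt1 nuclei the time effect in Ctrl differed for 40 of 12192 mRNAs (0.328%), 25 higher and 15 lower in PCT nuclei, with 41 by DESeq2 and 6 without the second Ctrl ZT16 library. Arntl stood at 50.1 and 47.5 CPM in the Flt1 nuclei of Ctrl ZT4 and 98.0 and 110 in Ctrl ZT16, and its effect was larger in PCT nuclei by 2.83 ± 0.17 (adjusted p = 5.97e-06). Rhobtb1 stood there at 118 and 125 and at 145 and 166 CPM, with a difference of 2.18 ± 0.15 (adjusted p = 1.60e-05). Per3 and Nr1d2 fell further in PCT nuclei, by -1.35 ± 0.21 (adjusted p = 0.0273) and -0.99 ± 0.18 (adjusted p = 0.0415, DESeq2 adjusted p = 0.0704), and Slc22a12 rose further, by 1.15 ± 0.19 (adjusted p = 0.0297). Dlg2 differed by 1.22 ± 0.15 (adjusted p = 0.00364). Flt1 nuclei also held UMIs of proximal genes, such as 428 CPM of Slc34a1, whose part in these differences was not tested.

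**Figure D5:**
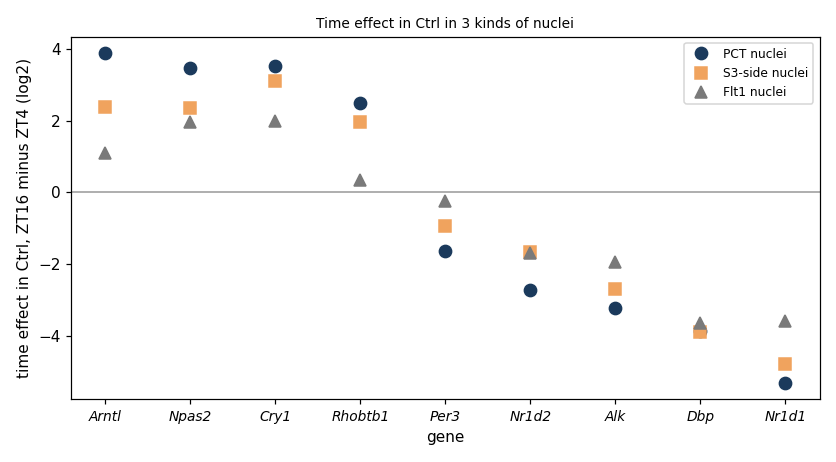
Time effect in Ctrl (ZT16 minus ZT4, log2) of 9 genes in PCT nuclei (circles), S3-side nuclei (squares) and Flt1 nuclei (triangles), each from n = 2 libraries per time point. The effect of Arntl is 3.89 in PCT nuclei, 2.38 in S3-side nuclei and 1.09 in Flt1 nuclei, and that of Dbp is -3.88, -3.89 and -3.66.

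The genotype effect, taken as the mean over both times, differed between PCT and S3-side nuclei for 93 of 13863 mRNAs (0.671%), 43 higher and 50 lower in PCT nuclei. DESeq2 called 90, and without the first Ctrl ZT16 library edgeR called 3. Ces1d was lowered further in PCT nuclei, by -0.65 ± 0.11 (adjusted p = 0.0243), and Dlg2 by -0.59 ± 0.08 (adjusted p = 0.0151). Fhad1 was raised less in PCT nuclei (-2.15 ± 0.42, adjusted p = 0.0468), since it reached 92.5 to 138 CPM in the S3-side nuclei of cKOt. Slc22a5 differed by 0.57 ± 0.08 (adjusted p = 0.0156). The thick ascending limb marker Slc12a1 was among the 93 as well (-0.55), and the part of thick ascending limb UMIs in the other differences was not tested.

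Against Flt1 nuclei the genotype effect differed for 32 of 12490 mRNAs (0.256%), 19 higher and 13 lower in PCT nuclei, with 41 by DESeq2 and 8 without the first Ctrl ZT16 library. Arntl was raised more in PCT nuclei, by 1.70 ± 0.11 (adjusted p = 1.89e-05), and Cry1 by 1.45 ± 0.21 (adjusted p = 0.00955). Nr1d2 was lowered more, by -1.42 ± 0.13 (adjusted p = 0.000502). It stood at 157 and 173 CPM in the Flt1 nuclei of cKOt ZT4, next to 170 and 177 in Ctrl ZT4. Rhobtb1 and Nckap5 were raised more in PCT nuclei, by 0.73 ± 0.10 (adjusted p = 0.00955) and 0.84 ± 0.14 (adjusted p = 0.0295), and Dlg2 was lowered more, by -1.11 ± 0.11 (adjusted p = 0.000502). For Dbp the difference of -2.08 ± 0.42 was not called by edgeR (adjusted p = 0.0778), and DESeq2 gave an adjusted p of 0.0159. Dbp stood at 12.9 and 30.3 CPM in the Flt1 nuclei of cKOt ZT4 and at 1.62 and 3.88 in the PCT nuclei.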

How the data were processed

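Nuclei of 8 mouse kidneys were sequenced with 10x Genomics 3' chemistry (v3.1). The authors aligned and counted reads with Cell Ranger 7.1.0 and deposited, for every barcode called as a nucleus, raw UMI counts of each gene. The reference is mm10 by the methods and GRCm39 by the submitters' processing notes. Use of introns and of strand in counting was not given in the sources used here. Gene biotypes came, with overlaps, from GENCODE on GRCm39 by gene identifier (31674 of 32285 features matched by identifier, 41 by symbol). Coordinates are given for RefSeq promoters only, with their own build.

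PCT nuclei were gated as described, and their counts were summed per library. Groups were compared with edgeR 4.0.16 (quasi-likelihood test with default options, TMM within biotype, 1 model of the 4 groups over 8 libraries, R 4.3.3) for genes that reached 5 counts in both libraries of 1 or more of the groups compared. Adjustment was within contrast and biotype, at 0.05. The pipeline was tested on simulated data. After that test, and after 4 other settings of the spread had been run on these counts, the filter was placed ahead of the estimate of the spread. The counts under those settings are given with the limits. DESeq2 1.42.0 was the other tool. The alternatives were RLE factors, a joint fit of mRNAs and lncRNAs, no filter, a replicate block, at least 4 markers, removal of nuclei with 2 UMIs of other-class markers or above the 95th percentile of UMIs, nuclei thinned to 1500 UMIs with 1332 per library, and each library left out. Fold errors cover the spread between mice. With 5325484 to 10083985 mRNA UMIs per library, 13499 mRNAs and 2312 lncRNAs could be tested between time points in Ctrl.

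Named are the rule genes, the clock genes, in each contrast and direction the 6 called mRNAs and 3 called lncRNAs with the smallest p, up to 4 called members of each gene list (the 2 with the most counts where none was called), and markers. Other names were chosen after their values were seen. Some genes that this rule names are not reported here. The rule, the lists and the comparisons were chosen with earlier results of these data known. Python 3.11.15 (numpy 2.4.6, pandas 2.3.3, scipy 1.17.1, matplotlib 3.10.9) was used for sums and figures. Bulk data of the study were not analysed here.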

Additional observations from a re-analysis of the deposited data

Results flagged for a closer look

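In PCT nuclei the time effect in cKOt minus that in Ctrl passed the test of the difference for 5 genes, among them Arntl (-3.65), Npas2 (-3.42), Cry1 (-3.32) and Rhobtb1 (-2.47), all on the log2 scale. In each of these 4, the Ctrl ZT4 libraries were below the other 6.

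Effects that differed between PCT and other nuclei, by the test of that difference with the library as a block, follow for the named genes. For the time effect in Ctrl, PCT minus S3-side nuclei came to 1.50 for Arntl, 1.10 for Npas2, 0.52 for Rhobtb1 and -1.09 for Nr1d2. PCT minus Flt1 nuclei came to 2.83 for Arntl, 2.18 for Rhobtb1, 1.22 for Dlg2, 1.15 for Slc22a12, -0.99 for Nr1d2 and -1.35 for Per3.

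For the genotype effect over both times, PCT minus S3-side nuclei came to 0.57 for Slc22a5, -0.59 for Dlg2, -0.65 for Ces1d and -2.15 for Fhad1. PCT minus Flt1 nuclei came to 1.70 for Arntl, 1.45 for Cry1, 0.84 for Nckap5, 0.73 for Rhobtb1, -1.11 for Dlg2 and -1.42 for Nr1d2. The thick ascending limb marker Slc12a1 differed in the comparison with S3-side nuclei too (-0.55), and its part in the others was not tested. Groups of 2 libraries cannot be searched for single outlying samples.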

How the results depend on the processing

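Between 2 libraries a group, 1 mouse decides many calls, and the counts below rest on how the spread between mice is estimated. None of the 138 results for named genes reversed, meaning a change of sign with a call in the main fit or in the other one. A change of sign without a call in either fit was counted as kept. Over the other settings 1523 kept their side of the limit, 69 lost and 47 gained a call, and over the fits without 1 library 959 kept it, 142 lost and 3 gained it. The causes were not tested. Genes under 5 counts in a library of each group compared could not be tested.

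The 5 comparisons within PCT nuclei are given in the order time in Ctrl, time in cKOt, genotype at ZT4, genotype at ZT16 and the difference of time effects. For mRNAs the counts of 55, 0, 76, 23 and 5 became 221, 85, 216, 71 and 33 with DESeq2, 283, 123, 296, 98 and 50 without the filter, and 62, 0, 77, 14 and 7 with the replicate block. Totals hide changes of genes. Of the 55 calls for time in Ctrl, 43 were shared with the 62 under the block, 49 with the 65 with 4 markers, 36 with the 59 without nuclei with other-class markers and 38 with the 62 with thinned nuclei. Of the 76 for genotype at ZT4, 60, 70, 62 and 58 were shared with the 77, 94, 100 and 80 called there, and of the 23 at ZT16, 14, 21, 20 and 17 with the 14, 25, 27 and 20. Time in cKOt gave 2 with RLE factors, in a joint fit and without nuclei with other-class markers, and 1 with thinned nuclei. The 4 settings run before the filter was moved, all chosen after seeing the data, estimated the spread over every gene. They gave 320, 151, 340, 110 and 60 by default, 230, 69, 223, 58 and 28 with a robust fit, 93, 3, 110, 31 and 7 with the newer quasi-likelihood, and 116, 8, 132, 34 and 12 with both.

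For lncRNAs the counts of 35, 18, 32, 6 and 0 became 31, 15, 26, 7 and 4 with DESeq2, 38, 25, 35, 6 and 1 with RLE factors, 54, 36, 52, 20 and 6 without the filter, and 11, 0, 12, 0 and 0 in a joint fit. They became 38, 12, 26, 6 and 3 with the replicate block, 19, 0, 27, 9 and 0 with 4 markers, 17, 2, 16, 4 and 0 without nuclei with other-class markers, and 21, 1, 13, 2 and 0 with thinned nuclei. The 4 settings with the spread over every gene gave 92, 54, 63, 32 and 9, then 89, 61, 53, 31 and 9, then 87, 49, 58, 31 and 5, then 97, 67, 59, 35 and 10. Deviations of the first replicates from their group means correlated by 0.258 between genotypes at ZT4 and by 0.241 at ZT16. Between time points they correlated by -0.290 to 0.168. The labels give a replicate number and no pairing of mice. A block over all 4 groups cannot show pairing within a time point, and such pairing was not tested.

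Without 1 library the mRNA counts ran from 11 to 126, 0 to 12, 32 to 96, 0 to 35 and 4 to 9, and the lncRNA counts from 9 to 45, 2 to 24, 12 to 34, 0 to 11 and 0 to 4. For the differences from other nuclei, time against S3-side nuclei (18) ran from 4 to 49, genotype against S3-side nuclei (93) from 3 to 105, time against Flt1 nuclei (40) from 6 to 82, and genotype against Flt1 nuclei (32) from 8 to 71. In the same order these counts became 117, 240, 306 and 191 without the filter and 147, 289, 356 and 221 with the spread over every gene, and the first became 28 with DESeq2 and with 4 markers.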

Other observations

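The genes in this paragraph were chosen after their values were seen, and no pathway was tested. In tryptophan breakdown, Acmsd, which turns the path away from NAD, stood at 147 and 137 CPM in Ctrl ZT4 and 417 and 480 in Ctrl ZT16 (edgeR adjusted p = 0.00663), and Afmid, which makes kynurenine, at 96.4 and 87.2 and at 230 and 169 CPM (adjusted p = 0.0430), whereas Kynu of the same pathway, with a time effect of -1.21 on the log2 scale, was not called. In cKOt, Acmsd stood at 211 and 149 CPM at ZT4 and 434 and 417 at ZT16. Among genes of lipid metabolism, some of which fell, such as Pnpla7 (-1.25, adjusted p = 0.0386), Nsdhl, of cholesterol synthesis, stood at 43.2 and 34.7 and at 91.1 and 86.4 CPM, and Fasn, the fatty acid synthase, at 2.32 and 2.35 and at 8.45 and 7.49 CPM (adjusted p = 0.0379 and 0.0430). The call of Acmsd was kept in 5 of the 8 fits without a library and those of Afmid, Nsdhl and Fasn in 2 each.

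Col4a3 and Col4a4, basement membrane collagen chains that share a start region, stood at 567 and 770 and at 488 and 549 CPM in Ctrl ZT4 and at 1116 CPM or more in every other library. Their time effects in Ctrl were 1.68 and 1.32 (edgeR adjusted p = 0.00570 and 0.0128), and at ZT4 they were 2.83-fold and 2.51-fold higher in cKOt than in Ctrl (adjusted p = 0.00681 for both). Both overlap other annotated genes. Also picked by their values, and called between genotypes at ZT4 under every setting and without every library, were Car5b, a mitochondrial carbonic anhydrase (2.63, 21.2 and 27.0 CPM in Ctrl and 190 and 110 in cKOt), Ypel2 (58.3 and 109 against 582 and 757 CPM), Htra1 (1.87), Lrig2 (1.64) and Ddhd1 (1.54), which were higher in cKOt, and Ccnd1, the cyclin D1 gene, which was lower (-2.91, 97.3 and 104 against 9.61 and 16.9 CPM). Prkag3, a subunit of the energy sensor AMPK, stood at 63.1 and 67.8 CPM in Ctrl ZT16 and 9.74 and 3.49 in cKOt ZT16 (-3.28, adjusted p = 0.0233), and Slc7a12, an amino acid carrier, at 0.108 and 2.11 against 24.3 and 23.8 CPM (4.74, adjusted p = 0.0361). Both of these calls were kept in 5 of the 8 fits without a library.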
